A study of Mus musculus with 6 samples.

Results

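The genes described here are 29 genes of cortical interneurons and of GABA signalling, taken by symbol from the 17348 genes of an RNA-seq table of embryonic mouse cortex. They comprise 15 cell identity genes (9 lineage transcription factors, 3 interneuron markers and 3 genes of GABA synthesis and vesicle loading), 11 receptor genes (9 subunits of the GABA-A receptor and 2 of the GABA-B receptor), and a group of 3 with 2 chloride carriers and 1 receptor scaffold. The question was whether the identity genes and the receptor genes differ between Ctrl and Ybx1 cKO cortex. Ybx1 encodes an RNA-binding protein that reads 5-methylcytosine in mRNA.

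Cortices were collected at E18.5, shortly before birth, with 3 libraries from Ctrl and 3 from cKO embryos. The cKO embryos carried floxed Ybx1 on both alleles and a Nestin-Cre transgene, which is active in neural progenitors throughout the nervous system. The control libraries are labelled WT, and the study describes its controls both as floxed littermates without Cre and as wild-type littermates, so whether they carried the floxed alleles could not be settled. Each library is called a biological replicate, without a statement of how many embryos went into it. Nestin-Cre also acts in the ventral forebrain from which interneurons come, so a change in the cortex could not be assigned to interneurons or to the cells around them.

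Cortical interneurons are not made in the cortex. They are born in the ganglionic eminences of the ventral forebrain under the transcription factors Dlx1, Dlx2 and Nkx2-1, and migrate into the cortex, where they make GABA and release it onto receptors carried mostly by other neurons. The identity genes are thus taken here as genes of the incoming cells, and the receptor genes as genes of neurons more widely. Which cells the reads came from was not measured. In a whole-tissue library, fewer cells of a type and less RNA per cell cannot be told apart.

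Ybx1 itself was measured at 956 to 1297 CPM (read counts scaled to the library total after TMM normalization) in Ctrl and 23.96 to 24.9 CPM in cKO, a log2 fold change of -5.47 ± 0.16 (SE; edgeR adjusted p = 6.95e-07). The Y-linked genes Eif2s3y, Kdm5d, Ddx3y and Uty were read at 20.6 to 109 CPM in the 3 Ctrl libraries and at 0 to 1.40 CPM in the 3 cKO libraries, so sex and genotype cannot be told apart. Totals were 15091951 to 16885451 estimated counts per library. Ctrl replicate 2 stood apart from the other controls: its counts differed from theirs with a chi-square per degree of freedom of 41.5 and 65.4, against 10.5 between Ctrl replicates 1 and 3. The members' fold changes that turn on this library are given without it further on. Sequencing was done in 3 batches over different biological replicates, and whether a replicate number stands for a batch is not stated.

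The start regions of 4 identity genes whose values lead the account below are shown first, Dlx2 as a lineage factor, Gad1 as the GABA-synthesising enzyme, and Sst and Npy as peptide markers of interneurons. Each is the 250 bases before the transcription start given by RefSeq on GRCm38.p6, written 5′ to 3′ along the gene. Capitals mark matches on either strand to any of 3 motifs, which do not overlap one another here. The GC box was searched as GGGCGG, a binding sequence of Sp factors. For the TATA box, at which transcription can be positioned, the letters were TATAAA. The third was TGACGTCA, the cAMP response element. The windows lie at chr2:71546755-71547004 on the minus strand for Dlx2, chr2:70561879-70562128 on the plus strand for Gad1, chr16:23890845-23891094 on the minus strand for Sst and chr6:49822460-49822709 on the plus strand for Npy.
Dlx2: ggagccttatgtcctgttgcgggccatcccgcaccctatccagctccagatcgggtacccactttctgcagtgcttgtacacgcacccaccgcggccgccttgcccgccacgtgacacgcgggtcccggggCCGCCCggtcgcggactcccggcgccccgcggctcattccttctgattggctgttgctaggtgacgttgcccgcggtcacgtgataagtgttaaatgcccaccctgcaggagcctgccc
Gad1: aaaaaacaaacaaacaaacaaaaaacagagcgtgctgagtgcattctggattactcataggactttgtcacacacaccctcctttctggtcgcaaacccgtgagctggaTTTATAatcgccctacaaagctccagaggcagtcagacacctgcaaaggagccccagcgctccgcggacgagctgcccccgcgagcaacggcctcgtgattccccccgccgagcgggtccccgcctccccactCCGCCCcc
Sst: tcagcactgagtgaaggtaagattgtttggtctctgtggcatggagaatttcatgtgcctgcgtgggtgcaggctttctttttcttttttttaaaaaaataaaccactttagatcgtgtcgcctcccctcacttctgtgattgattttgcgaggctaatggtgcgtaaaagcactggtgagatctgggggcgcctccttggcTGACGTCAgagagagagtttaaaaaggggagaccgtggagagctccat
Npy: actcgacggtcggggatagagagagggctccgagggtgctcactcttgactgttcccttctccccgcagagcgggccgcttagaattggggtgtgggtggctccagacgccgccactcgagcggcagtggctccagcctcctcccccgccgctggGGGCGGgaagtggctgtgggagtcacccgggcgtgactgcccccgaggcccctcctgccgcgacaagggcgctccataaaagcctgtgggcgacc

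The window of Sst, the gene of somatostatin, holds a cAMP response element that begins 48 bases before the start. This motif was found in 1 of the 24 members with a window, and in 1.55% of all 32851 windows. A GC box lay 8 bases before the start in Gad1, 95 bases before it in Npy and 119 bases before it in Dlx2; 15 of the 24 members and 32.7% of all windows held one. A TATA box was found at 141 bases before the start in Gad1, on the strand opposite to the gene, and in 4 of the 24 members against 12.4% of all windows. Windows for Dlx5, Dlx6, Maf, Gabrd and Slc12a2 were not analysed here. Members were counted per gene and the background per window, so these shares are not like measures. The motifs are matches of letters and were not tested as binding sites.

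Of the 29 members, 28 had counts high enough to be tested. Nkx2-1, the factor that specifies interneurons of the medial ganglionic eminence and is switched off in those that enter the cortex, was read at 0.313, 0.820 and 0.343 CPM in Ctrl and at 0.743, 0.441 and 0.447 CPM in cKO, which is above the floor of 3 counts (0.176 to 0.206 CPM) and below the filter. None of the 28 passed an adjusted p of 0.05 by edgeR, against 10 of the 13570 genes tested (0.0737%). None was at an unadjusted p under 0.05 by edgeR, and none by DESeq2. Over all genes, 3.01% reached an unadjusted p under 0.05 with at least 1.2-fold higher values in cKO, and 3.3% did so with lower values; 0 members were in either class. The lowest unadjusted edgeR p among members was that of Npy, 0.0892, with an adjusted p of 0.796.

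**Figure D1:**
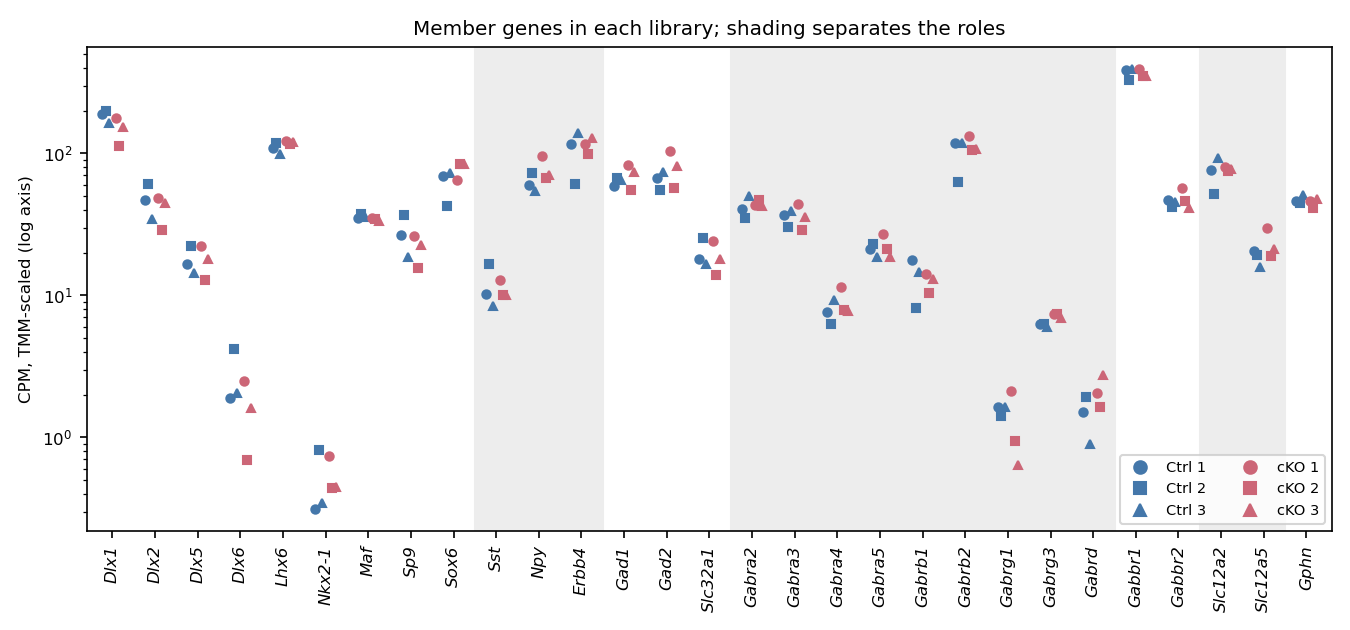
Level of each of the 29 members in each library, in TMM-scaled CPM on a log axis, with Ctrl in blue and cKO in red and marker shape giving the replicate number; shading separates the roles. The 2 groups intermingle in nearly all genes, Ctrl replicate 2 (blue square) is the highest control for the Dlx genes and the lowest for Erbb4 and Gabrb2, and cKO replicate 2 (red square) is low for the Dlx genes.

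Missing the threshold does not show that values were alike, so the interval of each fold change sets what these libraries allow. The 95% interval of the fold lay within 2-fold in either direction for 25 of the 28 members, and within 1.5-fold for 12. The exceptions to the first were Dlx6, Gabrg1 and Gabrd, all read at under 5 CPM. Log2 fold changes (cKO minus Ctrl) spanned -0.78 in Dlx6 to 0.55 in Gabrd. Their median was 0.080 over the 28 members, beside 0.0027 over all genes tested.

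**Figure D2:**
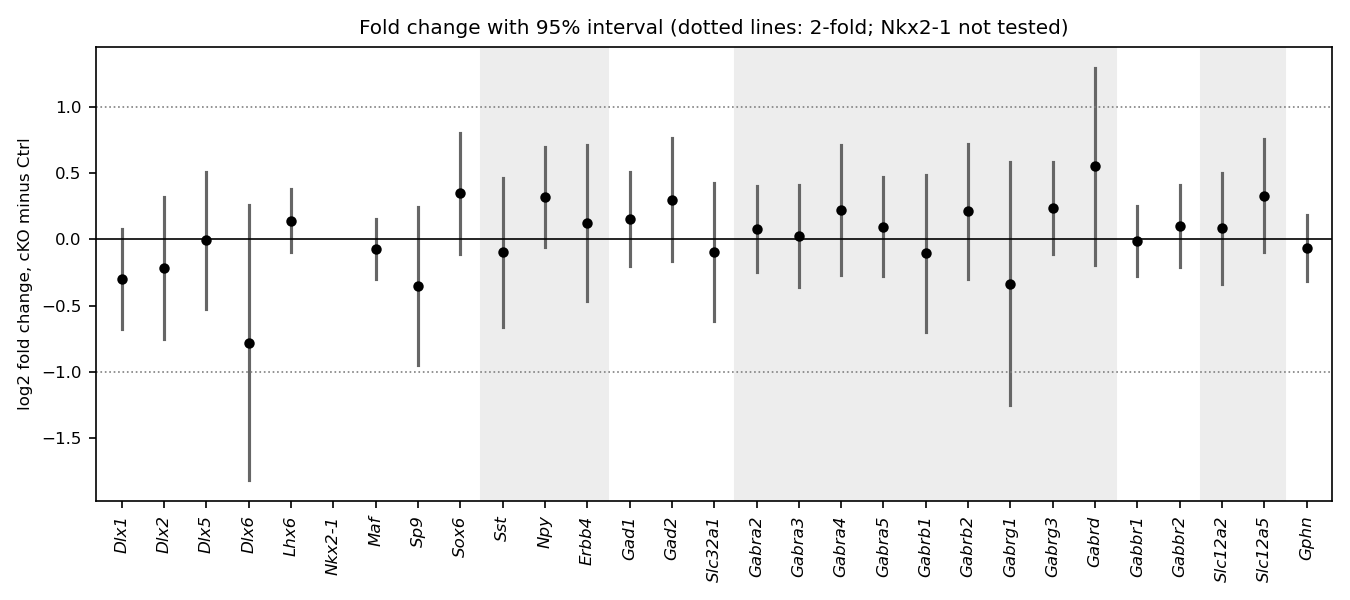
Log2 fold change of the 28 members tested, cKO minus Ctrl, with bars for the 95% interval from the edgeR fit and dotted lines at 2-fold. Each of the 28 intervals includes 0, and those of Dlx6, Gabrg1 and Gabrd reach past 2-fold.

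Among the lineage transcription factors, Dlx1 and Dlx2 start the programme of the ganglionic eminences and sit as neighbours on chromosome 2, 9426 bases apart. Dlx1 was read at 189, 197 and 162 CPM in Ctrl and at 178, 113 and 154 CPM in cKO, a log2 fold change of -0.30 ± 0.17 (SE) and a 95% interval of 0.625-fold to 1.06-fold. Dlx2 was read at 47.1, 60.6 and 34.3 CPM in Ctrl and at 48.8, 28.95 and 44.4 CPM in cKO. In both genes the lowest of the 6 libraries was cKO replicate 2, the highest was Ctrl replicate 2, and the groups overlapped. The log2 fold change of Dlx2 was -0.22 ± 0.24.

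Dlx5 and Dlx6 act downstream of that pair and lie 9236 bases apart on chromosome 6. Dlx5 was read at 16.5, 22.1 and 14.5 CPM in Ctrl and at 22.3, 12.7 and 17.9 CPM in cKO, with means of 17.7 ± 3.98 and 17.6 ± 4.79 CPM (SD, n = 3). Dlx6 was read at 1.88, 4.22 and 2.06 CPM in Ctrl and at 2.48, 0.692 and 1.60 CPM in cKO. Its fold change was the most negative among the members, -0.78 ± 0.46 on the log2 scale. Its interval was the widest among the members on that scale, and ran from 0.284-fold to 1.197-fold. Dlx6 is overlapped by the antisense genes Dlx6os1 and Dlx6os2 and Dlx1 by Dlx1as; the strand setting of the counting is not given in the sources used here, so reads from these partners could be counted with either gene.

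Sp9, which follows Dlx1 and Dlx2 in the same lineages and in striatal neurons, was read at 26.4, 36.9 and 18.6 CPM in Ctrl and at 26.1, 15.5 and 22.7 CPM in cKO, with a log2 fold change of -0.35 ± 0.26. Its order of libraries was that of Dlx2 at both ends, with Ctrl replicate 2 highest and cKO replicate 2 lowest. Sp9 is overlapped on the other strand by Cir1.

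Lhx6 and Maf, factors of the medial ganglionic eminence, stayed within a narrower range. Lhx6, which Nkx2-1 switches on and which interneurons keep after they reach the cortex, was read at 109, 117 and 98.8 CPM in Ctrl and at 122, 116 and 121 CPM in cKO. The groups overlapped by 1 library, Ctrl replicate 2, and the log2 fold change was 0.14 ± 0.11, with an interval of 0.934-fold to 1.3-fold. Maf, which acts in interneurons of the same origin, was read at 35.1, 37.2 and 35.8 CPM in Ctrl and at 35.0, 34.4 and 33.5 CPM in cKO. All 3 cKO values of Maf lay below all 3 Ctrl values, by a narrow margin, with a log2 fold change of -0.071 ± 0.10 and an exact permutation p of 0.1, the smallest that 3 against 3 libraries allow.

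Sox6, which acts after Lhx6 and is also present in cortical progenitors, was read at 68.9, 42.6 and 72.4 CPM in Ctrl and at 64.8, 84.7 and 84.1 CPM in cKO. Ctrl replicate 2 was the lowest of the 6 libraries, and the log2 fold change was 0.35 ± 0.20 with an interval of 0.927-fold to 1.74-fold. Of the 8 lineage factors tested, 2 had fold changes above 0 and 6 below 0.

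The interneuron markers were led by Npy, which encodes neuropeptide Y. It was read at 60, 72.3 and 54.3 CPM in Ctrl and at 96.1, 66.5 and 70.2 CPM in cKO, with means of 62.2 ± 9.19 and 77.6 ± 16.2 CPM (SD, n = 3). The groups overlapped through Ctrl replicate 2, and the interval of the fold was 0.959 to 1.62. Sst was read at 10.3, 16.5 and 8.36 CPM in Ctrl and at 12.8, 10.01 and 10.1 CPM in cKO, with a log2 fold change of -0.10 ± 0.25. Erbb4, the neuregulin receptor of migrating interneurons, was read at 116, 60.3 and 138 CPM in Ctrl and at 117, 98.5 and 127 CPM in cKO. Ctrl replicate 2 was the highest control for both peptides and the lowest for Erbb4.

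GABA is made by the glutamate decarboxylases, encoded by Gad1 and Gad2, and loaded into vesicles by the transporter encoded by Slc32a1. Gad1 was read at 58.7, 66.7 and 65.4 CPM in Ctrl and at 83.2, 54.8 and 74.3 CPM in cKO, a log2 fold change of 0.15 ± 0.16. Gad2 was read at 67.3, 55.6 and 73.3 CPM in Ctrl and at 103, 56.6 and 81.3 CPM in cKO, a log2 fold change of 0.30 ± 0.21. Slc32a1 was read at 18.1, 25.4 and 16.5 CPM in Ctrl and at 24.3, 13.8 and 18.01 CPM in cKO. For all 3 genes cKO replicate 1 was the highest and cKO replicate 2 the lowest of the cKO libraries, and the SD within cKO exceeded the difference between the group means. Per transcript length, in the TPM values of the authors (a level scaled by transcript length and library), the ratio of Gad1 to Gad2 was 1.85 ± 0.281 in Ctrl and 1.70 ± 0.145 in cKO (exact permutation p = 0.6; Benjamini-Hochberg adjusted p = 0.969 over 14 ratios computed, which were chosen after the data were seen). Gad1 is overlapped by the antisense gene Gad1os.

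The GABA-A receptor is a chloride channel of 5 subunits, usually alpha, beta and gamma or delta. The alpha subunits, which set its kinetics and drug response, were measured through Gabra2, Gabra3, Gabra4 and Gabra5. Gabra2 was read at 40.5, 34.9 and 50.3 CPM in Ctrl and at 43.6, 46.5 and 42.4 CPM in cKO, and Gabra3, which lies on the X chromosome, at 36.6, 30.5 and 39.5 CPM against 44.1, 28.6 and 35.6 CPM. Gabra5 was read at 21.1, 23.1 and 18.499 CPM in Ctrl and at 27.1, 21.3 and 18.6 CPM in cKO. Gabra4 was the lowest of these, with 7.65, 6.32 and 9.25 CPM in Ctrl and 11.5, 7.87 and 7.73 CPM in cKO. The groups overlapped for all 4, and their log2 fold changes were 0.026 to 0.22. Gabra4 and Gabrb1 overlap head to head by 196 bases on chromosome 5.

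The beta subunits help form the GABA-binding site. Gabrb2 was read at 118, 62.9 and 118 CPM in Ctrl and at 133, 105 and 108 CPM in cKO, a log2 fold change of 0.21 ± 0.23. Gabrb1 was read at 17.6, 8.20 and 14.6 CPM in Ctrl and at 14.1, 10.4 and 13.1 CPM in cKO, a log2 fold change of -0.10 ± 0.26. In both genes Ctrl replicate 2 was the lowest of the 6 libraries. The intervals were 0.812-fold to 1.65-fold for Gabrb2 and 0.617-fold to 1.40-fold for Gabrb1.

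Among the gamma and delta subunits, Gabrg3 was the other member whose groups did not overlap. It was read at 6.27, 6.27 and 5.96 CPM in Ctrl and at 7.43, 7.43 and 6.96 CPM in cKO, a log2 fold change of 0.24 ± 0.15 with an edgeR adjusted p of 0.837 and an exact permutation p of 0.1. Over all genes, 7.35% had all cKO values above all Ctrl values and 6.93% had all of them below; among the 28 members there was 1 of each, Gabrg3 and Maf. Gabrg1 was read at 1.63, 1.41 and 1.64 CPM in Ctrl and at 2.10, 0.944 and 0.639 CPM in cKO. Gabrd, which encodes the delta subunit of receptors outside synapses, was read at 1.505, 1.93 and 0.891 CPM in Ctrl and at 2.04, 1.64 and 2.75 CPM in cKO, and its interval ran from 0.876-fold to 2.46-fold. At this depth the intervals include a 2-fold decrease for Gabrg1 and a 2-fold increase for Gabrd.

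The GABA-B receptor is a G protein-coupled dimer of the products of Gabbr1 and Gabbr2, and both must be present for it to reach the surface. Gabbr1 was read at 385, 329 and 390.1 CPM in Ctrl and at 392, 352 and 351 CPM in cKO, a log2 fold change of -0.011 ± 0.12. Gabbr2 was read at 47.1, 41.6 and 45.4 CPM in Ctrl and at 56.7, 46.4 and 40.9 CPM in cKO, a log2 fold change of 0.10 ± 0.14. These were among the best measured members: the intervals were 0.828-fold to 1.19-fold for Gabbr1 and 0.867-fold to 1.33-fold for Gabbr2. In TPM, Gabbr1 exceeded Gabbr2 by 10.3 ± 0.407 times in Ctrl and by 9.61 ± 1.03 times in cKO (exact permutation p = 0.4; adjusted p = 0.969 over the 14 ratios).

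Whether GABA excites or inhibits depends on 2 chloride carriers, the importer NKCC1, encoded by Slc12a2, and the exporter KCC2, encoded by Slc12a5, which gains on the importer as neurons mature. Slc12a2 was read at 76.0, 52.1 and 92.6 CPM in Ctrl and at 80.2, 75.4 and 77.8 CPM in cKO. Slc12a5 was read at 20.4, 19.3 and 15.8 CPM in Ctrl and at 29.6, 18.9 and 21.2 CPM in cKO, a log2 fold change of 0.33 ± 0.19 and an interval of 0.936-fold to 1.69-fold. In TPM the importer exceeded the exporter in all 6 libraries, by 3.27, 2.34 and 5.17 times in Ctrl and by 2.39, 3.51 and 3.23 times in cKO (exact permutation p = 0.8; adjusted p = 0.969 over the 14 ratios). Slc12a2 is widely present in progenitors and glia, so the ratio is one of the tissue and not of neurons alone. Gphn, which encodes the scaffold gephyrin that anchors receptors at inhibitory synapses, was read at 46.1, 44.4 and 50.7 CPM in Ctrl and at 46.3, 41.4 and 47.6 CPM in cKO, with an interval of 0.806-fold to 1.14-fold.

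Levels of different genes were compared per transcript length, in TPM. Npy had the highest level among the members, at 494 ± 17.03 TPM in Ctrl and 703 ± 158 TPM in cKO (SD, n = 3), followed by Gabbr1 at 187 ± 31.3 and 204 ± 14.9 TPM and Dlx1 at 148 ± 8.90 and 132 ± 31.0 TPM. In Ctrl the next were Sst at 79.6 ± 18.3 TPM and Lhx6 at 75.8 ± 1.94 TPM, which did not differ beyond their spread. Sst stood close to Lhx6 in TPM although its CPM was far lower, since its transcript is short. The lowest levels were those of Nkx2-1 at 0.430 ± 0.243 TPM and Gabrg1 at 0.753 ± 0.127 TPM. The TPM of 24 of the 29 members had a higher mean in cKO, and the FPKM of 19 did. On the TPM scale the median of all genes itself was shifted by 0.136 (log2 of the ratio of means, cKO over Ctrl), and 17 of the 28 members tested lay above that shift.

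Compared as groups, the identity genes and the receptor genes differed little. The median log2 fold change was -0.039 over the 14 identity genes tested, with 6 above 0 and 8 below, and 0.095 over the 11 receptor genes, with 8 above 0 and 3 below. Over all genes the median was 0.0027 and 50.6% were above 0. The difference of the 2 medians, identity minus receptor, was -0.13. To set it against the spread between libraries, the same difference was taken within each library from each gene's deviation from its 6-library mean. It was -0.079, 0.33 and -0.26 in Ctrl and -0.10, -0.25 and 0.050 in cKO, so the groups overlapped and the SD within Ctrl alone was 0.30. Its sign turned without Ctrl replicate 2 (0.16), without cKO replicate 2 (0.034) and after removing each library's trend on transcript length and GC content (0.027). With that correction and the replicate number also in the fit, it was -0.0078. No difference between the 2 kinds of gene larger than the spread between libraries was thus detectable.

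**Figure D3:**
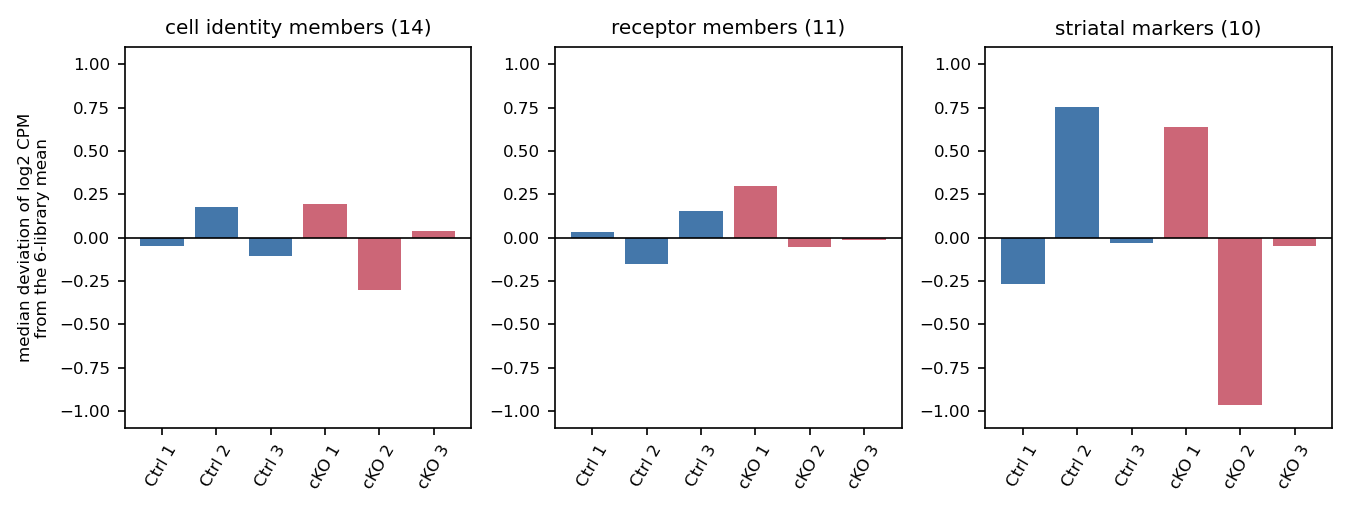
Median deviation of log2 CPM from the mean of all 6 libraries, for the 14 identity members tested, the 11 receptor members and 10 markers of striatal projection neurons, with 1 bar per library (Ctrl blue, cKO red). The identity genes are highest in cKO replicate 1 and Ctrl replicate 2 and lowest in cKO replicate 2, as are the striatal markers over a wider range, and the receptor genes are lowest in Ctrl replicate 2.

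The libraries differed more than the groups did. Among cKO libraries, replicate 2 had the lowest value of 12 of the 14 identity genes and of 4 of the 11 receptor genes. Replicate 1 had the highest value in both kinds, in 12 of the 14 and 9 of the 11. Among Ctrl libraries, replicate 2 had the highest value of 11 of the 14 identity genes and the lowest value of 8 of the 11 receptor genes. Such counts were not taken over all genes, so whether they set the members apart from other genes was not tested. The summed level of Dlx1, Dlx2, Dlx5, Dlx6 and Sp9, a set put together after the data were seen, was 281, 321 and 231 CPM in Ctrl and 277, 171 and 240.5 CPM in cKO. Lhx6 over the same libraries stayed between 98.8 and 122 CPM, also with replicate 2 highest among Ctrl and lowest among cKO libraries. The libraries with the highest and the lowest sum of the Dlx and Sp9 genes were thus replicate 2 of either group.

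Markers of striatal projection neurons, a GABA cell type that also comes from the Dlx lineage and lies beneath the cortex, varied over the same libraries. All 10 of these markers passed the count filter, none was called, and their summed level was 88.5 to 146 CPM in Ctrl and 86.9 to 144 CPM in cKO. Their median deviation was -0.27, 0.76 and -0.033 in Ctrl and 0.64, -0.97 and -0.049 in cKO, on the log2 scale, with Ctrl replicate 2 and cKO replicate 1 high and cKO replicate 2 low. Of the 10, 9 had their highest Ctrl value in replicate 2, 9 their highest cKO value in replicate 1 and 9 their lowest cKO value in replicate 2. Among these Six3, a striatal transcription factor, was read at 5.20, 7.85 and 3.84 CPM in Ctrl and at 9.29, 0.944 and 4.53 CPM in cKO. The exception among cKO libraries was Ppp1r1b, which encodes a dopamine-regulated phosphatase inhibitor and had the highest level of the list, at 38.1, 56.6 and 38.4 CPM in Ctrl and 48.5, 58.6 and 57.7 CPM in cKO. The same libraries were high and low in markers of ventral forebrain progenitors. In those of oligodendrocyte precursors this held among cKO libraries only, and in those of cortical projection neurons it did not hold. Tested markers of ventral forebrain progenitors had median deviations of 0.15, 0.40 and -0.099 in Ctrl and 0.34, -0.79 and -0.082 in cKO. Those of oligodendrocyte precursors had 0.31, 0.14 and -0.093 in Ctrl and 0.40, -0.44 and -0.33 in cKO. Those of cortical projection neurons had -0.038, -0.045 and 0.11 in Ctrl and -0.12, 0.029 and 0.093 in cKO. The part of striatal or other tissue in the spread of the identity genes was not tested.

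Transcript length also went with the level in Ctrl replicate 2. Of the 13 members whose longest annotated transcript was under 4000 bases, a split set after the data were seen, 10 had their highest Ctrl value in replicate 2, with a median of 0.34 (log2) above the mean of the other controls. Of the 15 members of 4000 bases or more, 10 had their lowest Ctrl value there, with a median of -0.24. The same medians over all genes were 0.20 for 7818 shorter and -0.26 for 5501 longer transcripts. Of the tested members, 6 of 14 identity genes and 7 of 11 receptor genes were 4000 bases or more. In all, 8 members went against the split: the shorter Gabra3, Gabrb2 and Gphn were below 0 (-0.31, -0.90 and -0.12), and the longer Dlx1, Gabrg3, Maf, Slc12a5 and Sp9 were above it (0.033 to 0.73). The part of transcript length in the members' fold changes was not tested beyond the correction given above.

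**Figure D4:**
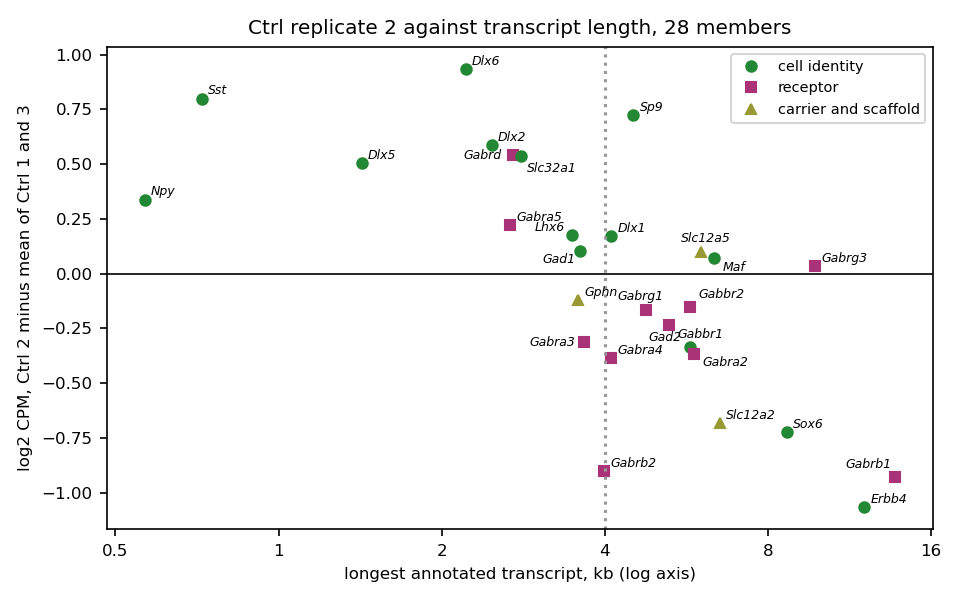
Log2 CPM in Ctrl replicate 2 minus the mean of Ctrl replicates 1 and 3, against the longest annotated transcript in kb on a log axis, for the 28 members tested; the dotted line marks 4000 bases. Short identity genes such as Npy, Sst and Dlx5 lie above 0 and long genes such as Erbb4, Sox6 and Gabrb1 below it.

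With both libraries numbered 2 left out, a choice made after the data were seen that leaves 2 against 2, no member passed an adjusted p of 0.05 in edgeR, and the lowest adjusted p was 0.212, that of Npy. At an unadjusted p under 0.05 with at least 1.2-fold, 6 members were higher in cKO (Npy, Gad1, Gad2, Gabrd, Slc12a5 and Dlx5) and 0 lower. Over all genes 4.45% were higher and 3.8% lower by that rule. The log2 fold changes in these 4 libraries were 0.55 ± 0.14 (SE) for Npy, 0.35 ± 0.11 for Gad1, 0.40 ± 0.13 for Gad2, 0.49 ± 0.18 for Slc12a5, 0.99 ± 0.37 for Gabrd and 0.38 ± 0.16 for Dlx5. Without Ctrl replicate 2 alone 2 members were higher by that rule (Gabrd and Npy) and 1 lower (Gabrb1), beside 4.26% higher and 4.33% lower over all genes. Without cKO replicate 1 the rule gave 3 lower (Dlx1, Dlx6 and Gabrg1), beside 2.23% lower over all genes and 1.66% higher. Without Ctrl replicate 3 it gave Sox6 as higher and Sp9 as lower, beside 5.89% and 7.92%, and without cKO replicate 2 it gave Gad2 as higher, beside 2.18% higher and 2.23% lower. Without Ctrl replicate 1 or cKO replicate 3 it gave no member. Which members reached the unadjusted threshold therefore changed with the libraries used.

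Without Ctrl replicate 2 the log2 fold changes of the Dlx2, Dlx6 and Sp9 genes were -0.00061, -0.30 and -0.073, and that of Sox6 was 0.14, each nearer to 0 than with all 6 libraries. Others moved away from 0, among them Gabrb1 (-0.37), Gabrd (0.82), Npy (0.44) and Lhx6 (0.20). The sign turned for 8 members. It became positive in Dlx5 (0.19), Sst (0.23) and Slc32a1 (0.11), and negative in Erbb4 (-0.16), Gabra2 (-0.038), Gabra3 (-0.073), Gabrb2 (-0.032) and Slc12a2 (-0.11). The identity median was then 0.13 and the receptor median -0.032.

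Other genes of the pathway were taken from a list of 44, of which 42 were in the table and 34 were tested; Gabrr3 and Pvalb were not analysed here. None passed an adjusted p of 0.05, and 1 had an unadjusted p under 0.05. That gene was Calb2, which encodes calretinin, read at 11.4, 19.3 and 6.23 CPM in Ctrl and at 4.95, 6.23 and 8.94 CPM in cKO (log2 fold change -0.88 ± 0.38, edgeR adjusted p = 0.732). Its groups overlapped. Of the 34, 16 had fold changes above 0 and 18 below, with a median of -0.0043.

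Cortical and other markers gave the setting of these values. None of the marker genes passed the adjusted threshold in edgeR. Slc17a7, the vesicular glutamate transporter of cortical projection neurons, was read at 33.0, 30.7 and 34.1 CPM in Ctrl and at 55.5, 55.1 and 51.6 CPM in cKO (log2 fold change 0.73 ± 0.10, edgeR adjusted p = 0.0722), while the 8 markers of these neurons had a median of 0.0047. The gene of the progenitor factor Pax6 had a log2 fold change of 0.31 ± 0.11 with an unadjusted edgeR p of 0.0204, and that of the astrocyte water channel Aqp4 0.74 ± 0.31 with 0.0392. The 6 progenitor markers had a median of -0.0024 with 3 above 0 and 3 below, and the 4 astrocyte markers a median of -0.087 with 2 above and 2 below. Of the 4 choroid plexus markers, Ttr, Folr1 and Kl were under the floor of 3 counts in every library and Aqp1 was read at 0.627 to 1.05 CPM. Of the 3 thalamic markers, Gbx2 was under the floor, Lhx9 was read at 0.310 to 0.703 CPM and Tcf7l2 at 3.57 to 4.52 CPM in Ctrl and 3.71 to 6.80 CPM in cKO, with the highest value in cKO replicate 2.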

How the data were processed

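RNA was extracted with Trizol from E18.5 cortices, 3 libraries per group, and grouped by the submitters' labels. The authors deposited estimated counts per gene, not normalized between libraries, of which 89.4% were whole numbers. The authors' TPM and FPKM values, deposited in the same table, are scaled by transcript length and library. Of 27 columns, 18 were used, and 0 columns of per-sample values were unused. The submitters' processing notes name HISAT2 2.2.1, Bowtie2 2.4.5, RSEM 1.3.1, GRCm38 and mm10, without a role or order; the strand setting is not given in the sources used here.

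Counts were rounded, filtered with filterByExpr, scaled by TMM and tested between groups in R 4.3.3 by the quasi-likelihood method of edgeR 4.0.16, with p-values adjusted by Benjamini-Hochberg over all genes tested and DESeq2 1.42.0 as an alternative. Intervals are at 95%. Exact permutation tests were two-sided, on log2(CPM + 0.5) for single genes and on untransformed values for the ratios of TPM. TPM and FPKM were otherwise used for description. Lengths, GC content and positions came from GENCODE M21 on GRCm38 (96.7% of genes matched). No pair of replicates was a duplicate (chi-square per degree of freedom 3.52 to 65.4). The common biological coefficient of variation was 0.147, and the floor of 3 counts covers counting error only. Nothing ties a library to a single embryo, so p-values measure the spread between these libraries. All 29 members are named; of the other lists, genes called or, where none was, up to 5 with the lowest unadjusted p under 0.05, beside genes a result turned on, chosen after their values were seen (Six3, Ppp1r1b, and the choroid plexus and thalamic markers). The members and lists were chosen with earlier results of these data known. Alternatives were other scalings, filters and tests, a length and GC correction, the replicate block, and leaving out libraries. Scripts were tested on simulated data. Of the 14 ratios, those not given are not reported here.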

Additional observations from a re-analysis of the deposited data

How the results depend on the processing

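No member passed an adjusted p of 0.05 in any of the 15 alternatives, in which the members' lowest and highest adjusted p were 0.0744 (Npy, length and GC correction with the replicate block) and 0.99991. Of 420 member fold changes under these alternatives, 384 kept their direction and 36, in 15 genes, changed sign; 13 genes changed sign in none. The cause of these changes was not tested. In the edgeR fit used above, 0 members were past an unadjusted p of 0.05 and 1.2-fold. That number was 1 with the length and GC correction (Npy), and 1 when the block by replicate number was added. It was 0 to 3 when 1 library was left out, and 6 with both libraries numbered 2 left out. Over all genes that rule gave 4.10% higher and 3.91% lower with the correction, 4.54% and 4.09% with the block as well, and 1.66% to 7.92% in either direction without 1 library. Called markers were 0 in that edgeR fit and 1 by DESeq2. There was 1 with the length and GC correction, and 2 when the block was added. Leaving out 1 library gave 0 to 2, and leaving out both numbered 2 gave 1. Slc17a7 was called wherever a marker was, with Ppp1r1b as the second where there were 2. Calls over all genes were 10 in that edgeR fit, 99 by DESeq2 and 153 with the length and GC correction. They were 148 when the block was added, 41 without both numbered 2, and 8 to 122 without 1 library. All of these counts come from the fits described here. The paper reports larger numbers of changed genes at E18.5 in either direction, and the reason for the gap was not tested.

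The replicate block alone gave 0 called members and 11 called genes. Libraries of the same number correlated at 0.099, 0.085 and 0.26 in their deviations from the group means; each library correlated best with its own number, a hint from the data, not the design.

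Log2 fold changes that turned sign with the length and GC correction were 0.14 for Dlx5, 0.15 for Sst, 0.017 for Slc32a1, -0.016 for Gabra3 and -0.0035 for Slc12a2, and with the block as well 0.11 for Dlx5, 0.14 for Sst and -0.029 for Gabra3. With both libraries numbered 2 left out, those that turned were 0.20 for Dlx2, 0.38 for Dlx5, 0.057 for Dlx6, 0.12 for Sp9, 0.30 for Sst, -0.057 for Erbb4, 0.29 for Slc32a1, -0.074 for Gabra2 and -0.089 for Slc12a2. Leaving out 1 library at a time, log2 fold changes ranged from -0.21 to 0.19 for Dlx5, -0.29 to 0.23 for Sst, -0.16 to 0.37 for Erbb4, -0.33 to 0.11 for Slc32a1, -0.038 to 0.23 for Gabra2, -0.14 to 0.17 for Gabra3, -0.065 to 0.21 for Gabra5, -0.37 to 0.14 for Gabrb1, -0.032 to 0.35 for Gabrb2, -0.086 to 0.032 for Gabbr1, -0.031 to 0.21 for Gabbr2 and -0.11 to 0.28 for Slc12a2. Over the same libraries the identity median ranged from -0.15 to 0.16, the receptor median from -0.032 to 0.21 and their difference from -0.23 to 0.16.

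With 3 libraries a group, the 95% interval lay within 1.5-fold for 12 of the 28 members, and the members read lowest were Nkx2-1, Dlx6, Gabrg1 and Gabrd.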
